A study of Mus musculus with 300 samples.

Results

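Immediate early genes are transcribed within minutes of a stimulus without need for new protein synthesis. Fos, Jun, Junb, Egr1, Ier2 and Nr4a1 were followed here as 6 of the 13737 features measured in single early thymic progenitor (ETP) cells of the mouse embryonic thymus. The genes were chosen by name and each had 1 row in the expression matrix. FOS and the JUN proteins pair to form the transcription factor AP-1. EGR1 is a zinc finger transcription factor, NR4A1 is an orphan nuclear receptor that is widely used as a reporter of antigen receptor signalling in T cells, and IER2 is a nuclear protein. In lymphocytes these genes are known for their response to receptor signals, and in single-cell work also for their response to tissue dissociation and handling.

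The cells came from the E15.5 thymus of 5x polychromILC mice, a strain that carries several reporter genes, and they form 1 group without treatment or control. Every cell carries the same reporter alleles as far as the labels say. Single cells were sorted into 96-well plates and processed with smart-seq2, a full-length cDNA method without molecular identifiers. The labels name 300 cells of 4 mouse ids, and the matrix holds all but 39 of them: 69 cells of mouse 1B, 67 of mouse 1A, 64 of mouse 2A and 61 of mouse 2B. The labels do not say how many embryos a mouse id covers.

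The matrix holds log2 expression values after a batch correction, and 4 sets of cells share exact values. Within a set, the lowest value that several cells repeat for a gene served as that gene's no-read level. Detection means a value above it, and "a level of 10" means a linear value at least 10 above it. Set 1 held 64 cells of mouse 1B and 1 cell labelled 1A, all on plate AF1, and the other 5 cells of mouse 1B fell in sets 2 and 3. Mouse 1B thus nearly coincides with a plate region and a correction set, and these cannot be told apart for most of its cells. Mice 2A and 2B shared sets 2 and 4, so they may not be independent units. The median number of genes detected per cell was 7544 in mouse 1B, 7518 in 1A, 7787 in 2A and 8243 in 2B. Some marker genes of the labelled cell type were found in most cells. Kit, the stem cell factor receptor, reached a level of 10 in 81.7 ± 5.63% of cells (mean ± SD, n = 4 mice). Cd34 did so in 74.4 ± 5.57% and the pan-leukocyte gene Ptprc in 94.3 ± 3.36%. The mature T cell gene Cd3e did so in 3.53 ± 2.44% and Bcl11b in 8.31 ± 6.68%. Other markers were mixed. Flt3 reached that level in only 38.01 ± 8.73% of cells. Il2ra, a gene of the next stage of T-lineage development, did so in 34.4 ± 7.95%. The label was thus not borne out by every marker.

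On GRCm38, Fos (ENSMUSG00000021250.13) lies at chr12:85473890-85477273 on the plus strand and its longest transcript has 4 exons. Jun (ENSMUSG00000052684.4) is a single-exon gene at chr4:95049034-95052222 on the minus strand. Junb (ENSMUSG00000052837.6) at chr8:84974484-84978718 and Ier2 (ENSMUSG00000053560.4) at chr8:84661331-84662852 lie on the minus strand of the same chromosome and have 1 exon in their longest transcript. Nr4a1 (ENSMUSG00000023034.6) lies at chr15:101254269-101274795 on the plus strand with 8 exons in its longest transcript. The sixth gene is Egr1 (ENSMUSG00000038418.7).

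RefSeq promoters (GRCm38.p6) were found for 4 of the 6 genes. The reason for showing them is the margin of 3 genes, Fos, Jun and Junb, in mouse 1B. Their shares of cells at a level of 10 were at least 20 percentage points above each other mouse there, narrowly for Junb (21.6 points). Each line gives the 250 bases before the RefSeq start, on the gene's own strand, 5′ to 3′, at chr12:85473640-85473889 (plus strand), chr4:95052223-95052472 (minus), chr8:84978749-84978998 (minus) and chr15:101266596-101266845 (plus) in the order of the lines. The Nr4a1 start lies inside the annotated gene span. Capitals mark matches to any of the motifs searched.
Fos: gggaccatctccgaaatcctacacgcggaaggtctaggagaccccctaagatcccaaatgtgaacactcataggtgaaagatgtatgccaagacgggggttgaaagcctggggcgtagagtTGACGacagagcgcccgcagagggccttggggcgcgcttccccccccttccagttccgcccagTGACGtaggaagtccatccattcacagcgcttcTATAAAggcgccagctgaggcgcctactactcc
Jun: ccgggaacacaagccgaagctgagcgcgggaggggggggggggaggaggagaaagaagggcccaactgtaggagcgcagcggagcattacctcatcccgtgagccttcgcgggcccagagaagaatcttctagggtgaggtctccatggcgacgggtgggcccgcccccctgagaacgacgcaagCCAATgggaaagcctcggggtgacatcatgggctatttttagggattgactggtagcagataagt
Junb: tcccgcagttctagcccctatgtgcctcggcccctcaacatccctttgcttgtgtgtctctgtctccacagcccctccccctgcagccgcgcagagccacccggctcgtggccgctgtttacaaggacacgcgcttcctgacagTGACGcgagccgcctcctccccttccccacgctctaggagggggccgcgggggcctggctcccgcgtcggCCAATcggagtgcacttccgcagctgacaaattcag
Nr4a1: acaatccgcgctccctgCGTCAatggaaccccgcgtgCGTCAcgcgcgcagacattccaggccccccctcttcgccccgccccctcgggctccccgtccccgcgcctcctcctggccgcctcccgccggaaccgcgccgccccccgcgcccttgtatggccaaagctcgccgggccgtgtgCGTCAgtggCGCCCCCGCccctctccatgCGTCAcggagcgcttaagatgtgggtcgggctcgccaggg

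No motif of the 7 searched on both strands occurred in all 4 promoters. The half-site TGACG of the cyclic AMP response element, which is part of the full element TGACGTCA, occurred in the promoters of Fos, Junb and Nr4a1, and in 17.8% of 32851 mouse promoters in the same window. Fos held it 2 times, the nearer one 66 to 62 bases before the start, and Junb 1 time. Nr4a1 held it 4 times on the minus strand, the nearest 40 to 36 bases before the start. The CCAAT box was found in Jun, 65 bases before the start, and in Junb, 36 bases before it, and in 33.8% of all promoters. The TATAAA box began 33 bases before the start of Fos (12.4% of promoters). An EGR motif, GCGNGGGCG, lay 60 to 52 bases before the start of Nr4a1 on the minus strand (4.7% of promoters). The full element TGACGTCA (1.55%), the AP-1 motif TGANTCA (6.75%) and the CArG box (1.47%) had no match in these 4 windows. Only these patterns were searched, which says nothing of variant sites inside the windows, such as TGACATCA in Jun, or of sites outside them.

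The 6 genes ranged from near universal to sparse. Ier2 was detected in 92.3 ± 5.93% of cells (mean ± SD over 4 mice), Junb in 78.9 ± 11.3%, Jun in 68.8 ± 18.2%, Fos in 68.1 ± 24.1%, Nr4a1 in 62.4 ± 9.74% and Egr1 in 26.3 ± 29.8%. At a level of 10 the shares were 86.6 ± 8.51% for Ier2, 64.1 ± 14.5% for Junb, 54.5 ± 18.7% for Jun, 41.6 ± 12.2% for Nr4a1, 36.6 ± 31.05% for Fos and 9.37 ± 8.16% for Egr1. Each gene in this order overlapped the next within 1 SD. At a level of 10 the SD of Fos and of Egr1 was nearly as large as the mean. Mouse 1B had the highest share of both genes by either measure.

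At a level of 10, Fos was the gene with the widest gap between mouse 1B and the other mice. It reached a level of 10 in 81.2% of 69 cells of mouse 1B (exact 95% interval 69.9 to 89.6%), against 32.8% of 67 cells in mouse 1A (21.8 to 45.4%), 10.9% of 64 in 2A and 21.3% of 61 in 2B. Its median log2 level above no reads was 6.78 in mouse 1B, 0.92 in 1A, 0 in 2A and 1.30 in 2B. The distance of 48.3 percentage points to the highest other mouse ranked 1 among 10756 genes that could be compared. The deposited log2 values, without any realignment, had medians of 6.11 in mouse 1B, 1.8 in 1A, 0.81 in 2A and 2.11 in 2B. In set 1 Fos had no repeated lowest value, so its lowest value stood in for the level at no reads and at least 68 of the 69 cells of mouse 1B count as detected. By any reads Fos thus exceeded the highest other mouse by at least 29.7 points, at rank 7, or by 31.1 points, at rank 6, if all its cells had reads. If that lowest cell had reads, the Fos levels of set 1 are understated.

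Jun and Junb, which encode AP-1 partners of FOS, also stood highest in mouse 1B. Jun reached a level of 10 in 81.2% of cells of mouse 1B, against 50.7% in 1A, 48.4% in 2A and 37.7% in 2B, which placed it at rank 7. Its median log2 level was 7.57 in mouse 1B, 3.59 in 1A, 1.91 in 2A and 1.07 in 2B. Junb reached that level in 84.1% of cells of mouse 1B, against 49.3% in 1A, 62.5% in 2A and 60.7% in 2B, at rank 17. Its medians were closer, at 5.81 in mouse 1B, 3.36 in 1A, 4.74 in 2A and 4.50 in 2B. Single cells of the 4 mice overlapped for each of these 3 genes, and the shares of the mice were what stood apart.

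Nr4a1, Egr1 and Ier2 were highest in mouse 1B by smaller margins. Nr4a1 reached a level of 10 in 56.5% of cells of mouse 1B, against 26.9% in 1A, 43.8% in 2A and 39.3% in 2B, a margin of 12.8 points (rank 72). Egr1 did so in 20.3% of cells of mouse 1B, against 2.99% in 1A, 10.9% in 2A and 3.28% in 2B, a margin of 9.35 points. For Ier2 the shares were 94.2% in mouse 1B, 74.6% in 1A, 90.6% in 2A and 86.9% in 2B, a margin of 3.58 points (rank 970). Any Egr1 reads at all were found in 71.01% of cells of mouse 1B, against 10.4% in 1A, 14.1% in 2A and 9.84% in 2B, and by this measure Egr1 ranked 1 of 10756 genes. At a level of 50 in place of 10, Egr1 was no longer highest in mouse 1B (a margin of -3.35 points), so its excess there lay in low values.

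**Figure D1:**
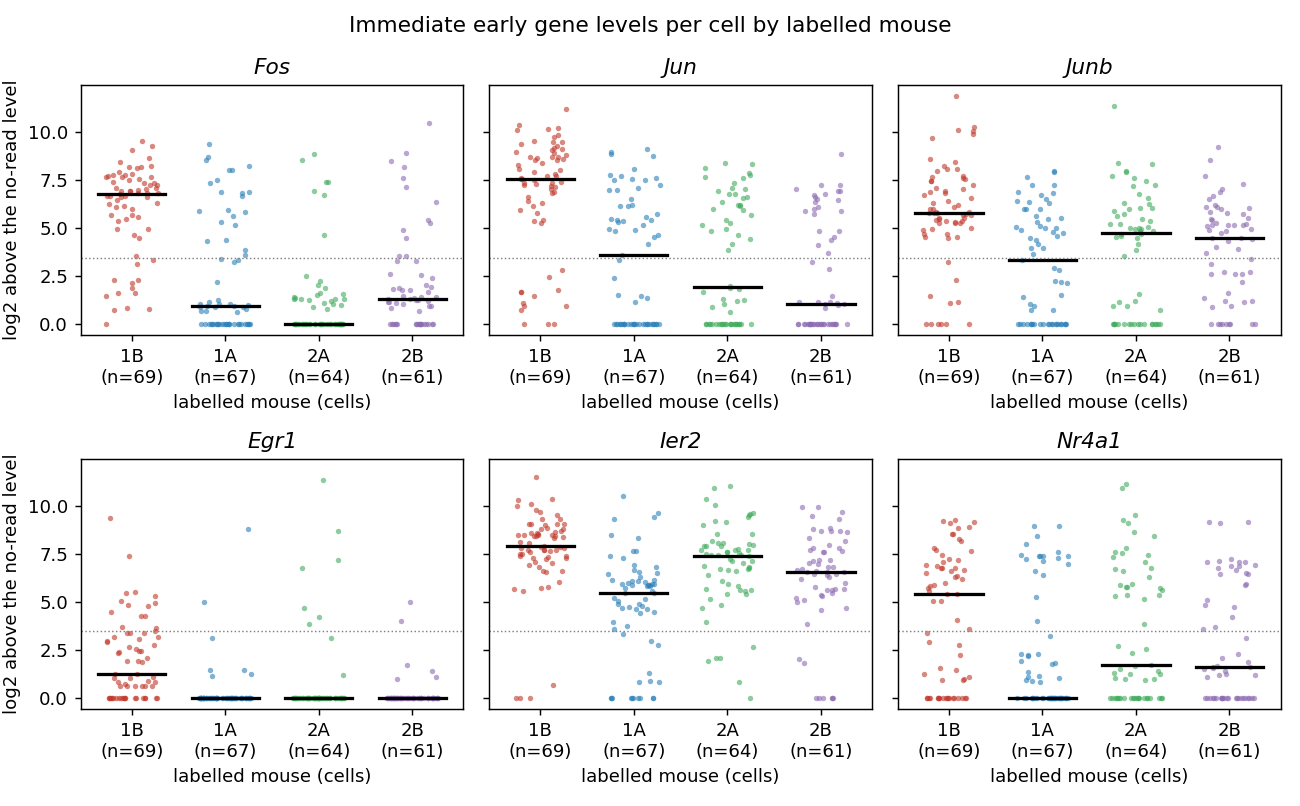
Each point is 1 cell of the labelled mouse on the horizontal axis, and the vertical axis is its log2 expression above the level at no reads of its correction set, with black bars at the median and a dotted line at a level of 10. The medians of Fos were 6.78 in mouse 1B, 0.92 in 1A, 0 in 2A and 1.30 in 2B, and Egr1 had a median above 0 in mouse 1B alone.

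Across all genes, a share in mouse 1B at least 20 points above each other mouse was rare. Of 10756 genes, 20 (0.186%) met it, and 3 of the 6 genes, Fos, Jun and Junb, were among them. All 6 genes were highest in mouse 1B, as were 2220 of all genes (20.6%). The mouse is the unit and mouse 1B is a single unit, so no test of this difference was made. Mouse 2B exceeded the other mice by that margin in 21 genes (0.195%) and mice 1A and 2A did so in 2 genes each (0.0186%).

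Most of 28 other immediate early genes that could be compared were highest in mouse 1B as well. They were 22 of the 28, with a median margin of 8.04 points, against -4.39 points for all genes, and 5 of the 28 passed 20 points. Klf6, a zinc finger factor, reached a level of 10 in 86.96% of cells of mouse 1B, against 43.3% in 1A, 39.1% in 2A and 34.4% in 2B. Zfp36, which encodes the mRNA-destabilizing protein tristetraprolin, did so in 86.96% in mouse 1B, against 44.8%, 32.8% and 34.4% in 1A, 2A and 2B. Ppp1r15a (GADD34), a regulator of the stress response phosphatase, was at 72.5% in mouse 1B, against 31.3%, 32.8% and 29.5% in 1A, 2A and 2B. Jund and the activation marker Cd69 had margins of 23.4 and 23.2 points. Fos, Klf6, Zfp36 and Ppp1r15a were the 4 leading genes of all 10756.

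Not every stimulus-responsive gene followed. Myc was at 84.1% in mouse 1B, against 76.1% in 1A, 85.9% in 2A and 91.8% in 2B, and Klf10 at 40.6%, against 44.8%, 43.8% and 45.9% in 1A, 2A and 2B. Among 6 genes of ERK pathway feedback, 0 passed 20 points. Dusp6, the ERK phosphatase, came nearest at 18.4 points (82.6% in mouse 1B, 64.2% in 1A, 62.5% in 2A and 62.3% in 2B). Of the heat shock genes only 2 could be compared, and neither was highest in mouse 1B: Hsph1 had 73.9% in mouse 1B, against 71.6 to 76.6% in the others. The other genes past 20 points were Per1, Pde4b, Sik1, Rel, Cpne8, Dmap1, Nfkbid, Bcl2l11, Rgs2, Rnf213, Fem1c and a feature without a symbol whose shares equalled those of Jund in each mouse, so reads of these 2 may be shared. They were named after their values were seen. Per1, Sik1 and Pde4b (33.7, 29.3 and 32.2 points) are genes known to respond to cyclic AMP signalling, and Rel and Nfkbid (26.6 and 24.9 points) belong to the NF-kB pathway. A part of either pathway was not tested. Crem, also a cyclic AMP response gene, was at 26.1% in mouse 1B, against 25.4% in 1A, 14.1% in 2A and 31.1% in 2B. Of 9 SRF/TCF and CREB regulators, 2 were highest in mouse 1B (median margin -5.06 points, against -4.39 for all genes). Of 12 AP-1 partners, 6 were (median -1.62 points), and 1, Jund, passed 20 points.

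**Figure D2:**
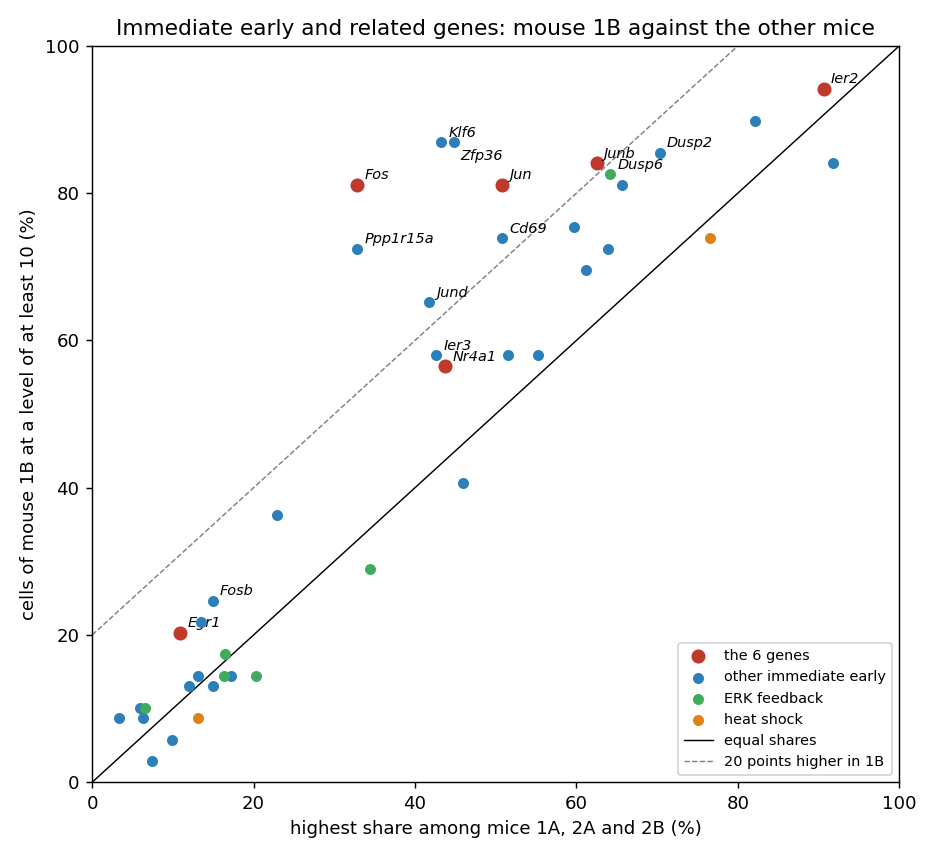
Each point is 1 gene of 4 lists, with the share of cells of mouse 1B at a level of at least 10 on the vertical axis and the highest share among mice 1A, 2A and 2B on the horizontal axis. Fos, Klf6, Zfp36 and Ppp1r15a lie farthest above the dashed line, which marks 20 points, and the 2 heat shock genes lie below the line of equal shares.

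Mouse 1B kept this distance within the progenitor cells. Among cells with both Kit and Cd34 at a level of 10, Fos reached that level in 85.7% of cells of mouse 1B (42 of 49), against 19.05% in 1A (8 of 42), 9.30% in 2A (4 of 43) and 19.1% in 2B (9 of 47). The margin of 66.6 points again ranked 1, and 30 genes (0.279%) passed 20 points. Jun was at 91.8% in mouse 1B, against 59.5% in 1A, 55.8% in 2A and 38.3% in 2B. Junb had a margin of 19.8 points, Nr4a1 of 16.5, Egr1 of 13.7 and Ier2 of 2.21. Of 8 marker lists of other cell types, 0 had their highest mean share in mouse 1B: the mean share over 16 NK genes was 20.4% in mouse 1B and 16.8 to 26.2% in the others, and over 13 dendritic genes 23.1%, against 23.6 to 29.9%. The 17 progenitor genes averaged 60.2% in mouse 1B, against 53.4 to 58.3%, and 10 heat shock genes 61.9%, against 55.5 to 60.4%. The part of these differences in the result was not tested.

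Part of the distance was present between cells of 1 plate. On plate AF1, 64 cells of mouse 1B in set 1 lay beside 14 cells of mouse 1A in set 3, and all 6 genes were at least 20 points higher in mouse 1B. That margin was common in this small comparison, with 12.1% of all genes reaching it. Fos was at 82.8% in mouse 1B and 42.9% in 1A, Junb at 82.8% and 42.9%, Nr4a1 at 57.8% and 21.4%, Ier2 at 95.3% and 64.3%, Jun at 82.8% and 57.1%, and Egr1 at 20.3% and 0%. The 0 of 14 cells for Egr1 allow a share of up to 21.4% in mouse 1A if 3 cells are taken as the limit behind a count of 0, and of up to 23.2% by the exact Clopper-Pearson interval, for counting error only. The 3 cells of mouse 1B in set 3 (numbered 79 to 81) had Fos at 8.20, 0.83 and 5.69 log2 above no reads. The 1 cell labelled 1A in set 1 had Fos at 9.38, the highest Fos value among cells labelled 1A.

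**Figure D3:**
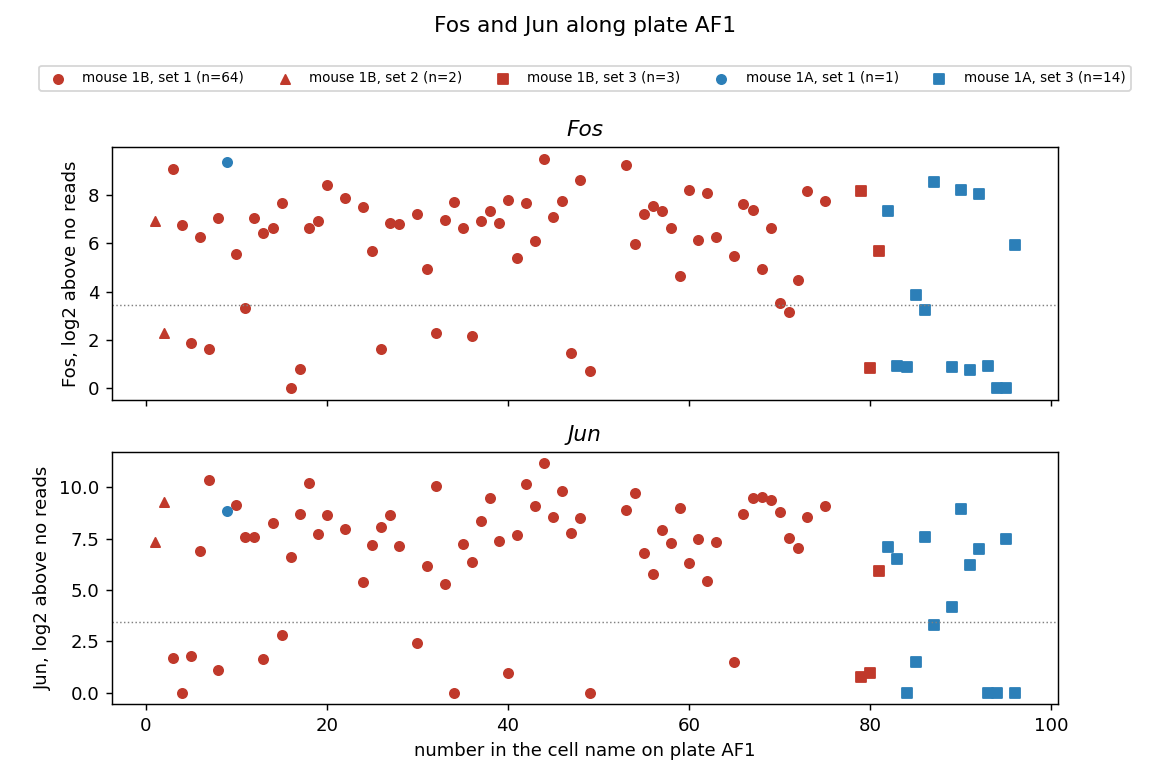
Fos (top) and Jun (bottom) in log2 above the level at no reads are plotted against the number in the cell name on plate AF1, with colour for the labelled mouse and marker shape for the correction set. The cells of mouse 1B in set 1, numbered 3 to 75, lie mostly above the dotted line at a level of 10 along the whole range, and the 14 cells of mouse 1A in set 3, numbered 82 to 96, lie on both sides of it.

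The no-read level of some of these genes also differed between sets. The deposited value that stands for no Jun reads was -1.52 in set 1 and 0.42 to 0.92 in sets 2, 3 and 4, and only 0.0744% of genes had a gap this low. For Fos the lowest value was -0.70 in set 1 and 0.80 to 0.88 in the other sets. Junb was also lowest in set 1, at -0.68 against -0.20 to 0.78 in the other sets, and 2.05% of genes had a gap this low. Egr1 was at -0.05 in set 1 and 0.16 to 0.31 in the others (5.12% of genes). For Ier2 and Nr4a1 the level of set 1 lay within the range of the other sets. Levels are counted from each set's own no-read level. The part of the batch correction in the excess of mouse 1B was not tested. By any reads Jun was found in 95.7% of cells of mouse 1B, against 59.7% in 1A, 64.1% in 2A and 55.7% in 2B (rank 4), and 18 genes (0.167%) passed 20 points by that measure. By any reads Junb and Nr4a1 exceeded the highest other mouse by 6.06 and 6.84 points, and the margin of Ier2 was -2.79 points.

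Cells of mouse 1B also held more of the 6 genes at a time. Higher shares of the single genes raise this count by themselves, and no expected count was computed. At least 4 of the 6 were at a level of 10 in 72.5% of cells of mouse 1B (50 of 69), against 22.4% in 1A (15 of 67), 23.4% in 2A (15 of 64) and 18.0% in 2B (11 of 61). All 6 were at that level in 7 cells of mouse 1B and in 1 cell of the other mice together. A cell with none of the 6 was not seen in mouse 1B, against 7.46% of cells in 1A, 3.13% in 2A and 8.20% in 2B.

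Within a mouse, the 6 genes were weakly related to one another, several pairs ranked near the top of all genes, and no pair passed the test. Co-expression was measured as a partial Spearman correlation inside each mouse, given plate, correction set and the number of detected genes, and the 4 mice were tested together with limma over 12430 genes. None of the 15 pairs passed an adjusted p of 0.05 in limma (lowest adjusted p = 0.203 in 30 tests of a pair in either direction). Their median rho was 0.107. Jun with Ier2 had a mean rho of 0.23 ± 0.076 (SD, n = 4 mice), with 0.25 in mouse 1B, 0.32 in 1A, 0.15 in 2A and 0.19 in 2B. Jun with Junb (0.22 ± 0.13), Egr1 with Ier2 (0.22 ± 0.19), Junb with Egr1 (0.21 ± 0.20) and Junb with Ier2 (0.18 ± 0.080) were also positive in all 4 mice. For Jun, Ier2 ranked 13 and Junb 18 among 12430 genes by mean rho, and for Egr1, Ier2 ranked 15 and Junb 22, where the highest rho of any gene with Jun was 0.31. Without mouse 1B, Egr1 with Ier2 was at 0.13 and Egr1 with Junb at 0.12. Of all genes, 7.19% were positive in all 4 mice with Jun, 7.33% with Junb, 5.91% with Egr1, 9.45% with Ier2, 7.56% with Fos and 8.29% with Nr4a1. Egr1 with Junb reached 0.48 and Egr1 with Ier2 also 0.48 in mouse 1B, where Egr1 reads were most frequent.

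Each pair with a mean rho below 0 held Fos or Nr4a1, and Jun with Egr1 was also low (0.04 ± 0.16, positive in 2 of 4 mice). The mean rho of Fos was 0.10 ± 0.16 with Jun, 0.13 ± 0.13 with Junb, 0.11 ± 0.14 with Egr1, -0.04 ± 0.074 with Ier2 and -0.07 ± 0.13 with Nr4a1. Nr4a1 was at -0.04 ± 0.073 with Jun, 0.05 ± 0.14 with Junb, 0.04 ± 0.17 with Ier2 and 0.16 ± 0.15 with Egr1. Fos and Jun reached a level of 10 in the same cell in 27.2% of all cells, against 20.7% from the product of their pooled shares. Inside mice the excess over the product was 2.36 ± 1.74 points (SD, n = 4 mice). Jun and Junb had the largest excess inside mice, 4.16 ± 2.72 points, present in 4 of 4 mice.

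**Figure D4:**
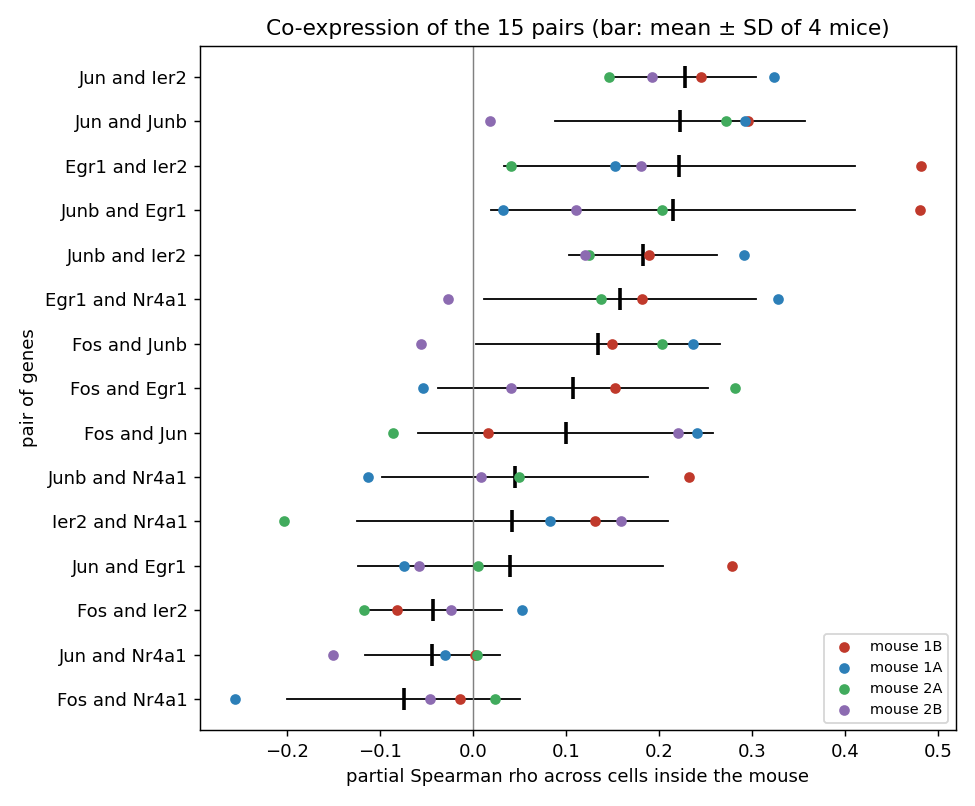
The partial Spearman rho across cells is shown for the 15 pairs of genes, with 1 coloured point per mouse and a bar for the mean ± SD of 4 mice. Jun and Ier2 lie to the right of 0 in each mouse, whereas Fos and Nr4a1 have a mean of -0.07.

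Genes most like each member were sought among 12430 genes by mean rho. For Nr4a1 the closest was Dusp5, a nuclear ERK phosphatase that is itself an immediate early gene, with a mean rho of 0.33 ± 0.031 and 4 of 4 mice positive (adjusted p = 0.0038, limma). It was the single gene called for Nr4a1 (0.00805%). Next came Trbj1-5 (0.28 ± 0.060), Trbc1 (0.28 ± 0.11) and Trbj1-1 (0.28 ± 0.078), all from the T cell receptor beta locus, and Ehmt1 (0.27 ± 0.043), none of which passed (adjusted p = 0.0727 for each of the 4). The Dusp5 call ended without mouse 1B (rho 0.32, adjusted p = 0.634) and without mouse 2B (rho 0.34, adjusted p = 0.06).

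Ier2 had 9 genes called (0.0724%), 7 positive and 2 negative, all at an adjusted p of 0.0479. Zfp385a (0.31 ± 0.13), Abcb9 (0.29 ± 0.16), Cnot1 (0.29 ± 0.18), Dusp5 (0.28 ± 0.089) and Unc13d (0.28 ± 0.076) led, followed by Slc22a3 and Bin2. Sdc4 (-0.29 ± 0.096) and Prcp (-0.30 ± 0.090) were negative in all 4 mice. These calls lie at the threshold, and leaving out mouse 1A, 2A or 2B left 0 calls, and leaving out 1B left 6. Dusp5 was thus the single gene called with more than 1 of the 6.

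For the other genes 0 genes were called in limma, with 856 at an unadjusted p under 0.05 for Fos (6.89%), 754 for Jun (6.07%), 821 for Junb (6.6%) and 725 for Egr1 (5.83%). The same count was 1065 for Ier2 (8.57%) and 767 for Nr4a1 (6.17%). The genes most like Fos were Fgl2 (0.29 ± 0.13, adjusted p = 0.0995), Il18rap (0.27 ± 0.051), Stk17b (0.26 ± 0.056), Adprm (0.26 ± 0.11) and Tcrg-C4 (0.25 ± 0.12). Those most like Jun were Gm49339 (0.31 ± 0.13, adjusted p = 0.0631), Dusp1 (0.26 ± 0.20), Daglb (0.26 ± 0.084), Grm6 (0.25 ± 0.075) and Cd69 (0.25 ± 0.093). Those for Junb included Pglyrp1 (0.28 ± 0.16), Pgd (0.27 ± 0.20), Gm49369 (0.26 ± 0.29) and Lfng (0.26 ± 0.10). For Egr1 they were Tnfaip3 (0.28 ± 0.12), an NF-kB feedback gene, Gm44511 (0.28 ± 0.15), Lnpep (0.27 ± 0.13), Xdh (0.26 ± 0.25) and Ifi208 (0.25 ± 0.22).

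The wider immediate early list leaned toward positive values with each member, none called but Dusp5. Of 29 genes tested, 26 were positive with Junb (median rho 0.088), 24 with Fos (0.058), 23 with Jun (0.058), 23 with Egr1 (0.088), 22 with Ier2 (0.066) and 19 with Nr4a1 (0.045), against 48.8 to 55.9% positive and medians near 0 for all genes. With Fos the highest were Dusp1 (0.22), Zfp36 (0.22), Fosb (0.21) and Klf2 (0.21), each positive in 4 of 4 mice. Of 9 heat shock genes, 6 were positive with Ier2, 5 with Junb, 4 with Jun, 3 with Fos, 3 with Nr4a1 and 1 with Egr1.

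The lean of the lists of cell type genes given here differed between members. Of 17 progenitor genes, 2 were positive with Fos (median rho -0.078), 2 with Junb (-0.056) and 2 with Egr1 (-0.045). With Jun 8 of them were positive, with Ier2 11 and with Nr4a1 13 (median 0.050). All 8 mast and basophil genes were positive with Jun (median rho 0.18), with Ier2 (0.17) and with Egr1 (0.11), 7 of 8 with Fos and with Junb, and 1 of 8 with Nr4a1. Cyp11a1 and the histidine decarboxylase gene Hdc led for Ier2 (0.22 and 0.20), and the basophil protease gene Mcpt8 for Jun (0.22). All 14 NK genes were positive with Junb (median 0.14), with the granzyme gene Gzmb at 0.20, 13 with Egr1, 12 with Fos and with Nr4a1, 9 with Ier2 and 1 with Jun. Of 13 dendritic genes, 1 was positive with Ier2 (median -0.12), with Cd74 at -0.24 and Siglech at -0.21, 1 with Jun and with Nr4a1, 2 with Junb and with Egr1, and 10 with Fos. Of 18 G2M phase genes, 17 were positive with Fos (median 0.096), 12 with Egr1, 5 with Junb and with Nr4a1, and 1 with Jun and with Ier2. Of 20 S phase genes, 20 were positive with Junb (median 0.056), 19 with Jun (0.089), 13 with Ier2, 11 with Egr1, 10 with Fos and 9 with Nr4a1. Of 19 T specification genes, 15 were positive with Nr4a1 (median 0.064), led by Trbc1 and the T cell kinase gene Lck (0.22), 15 with Ier2 (median 0.080), 14 with Junb, 11 with Egr1, 10 with Jun and 9 with Fos. Of 6 Notch target genes, 5 were positive with Nr4a1, led by Nrarp (0.26, adjusted p = 0.0727, limma), 5 with Ier2 and with Junb, 3 with Jun and 0 with Fos and with Egr1. Of all genes, 48.8 to 55.9% were positive with a member. Genes of 1 list can vary together in the same few cells, so the counts within a list are not independent. No gene of these lists passed the test with any member.

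Shares of cells in gene-defined classes are given as a description. Classes of dendritic, macrophage, and mast and basophil cells were cells with at least 50% of that list at a level of 10 (Flt3 set aside). NK/ILC-gene cells had at least 3 of 7 NK genes at that level. Nr4a1 reached a level of 10 in 6.06% of 33 dendritic-gene cells (2 cells) and in 48.1% of all Kit and Cd34 cells (87 cells). Of the dendritic-gene cells, 9 were also Kit and Cd34 cells. By mouse the dendritic-gene shares were 1 of 5 in mouse 1B, 0 of 17 in 1A, 1 of 6 in 2A and 0 of 5 in 2B, and each of these shares was below that of the Kit and Cd34 cells of the same mouse (65.3% in 1B, 30.95% in 1A, 48.8% in 2A and 44.7% in 2B). Ier2 was at 51.5% in dendritic-gene cells and 93.9% in Kit and Cd34 cells. Shares below those of Kit and Cd34 cells were not particular to the dendritic class. Nr4a1 was at 18.2% of 11 macrophage-gene cells, 25% of 12 mast and basophil-gene cells and 45.2% of 31 NK/ILC-gene cells. Ier2 was at 54.5%, 91.7% and 87.1% in these classes, in the same order. Egr1 was at that level in 0 of 33 dendritic-gene cells, which allows a share of up to 9.09% by the limit of 3 cells and of up to 10.6% by the exact Clopper-Pearson interval.

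The shares of Fos in the gene-defined minority classes are given with cells pooled over the mice other than 1B, and those of the dendritic and mast and basophil classes were not tested against progenitors. Fos reached a level of 10 in 40% of 20 NK/ILC-gene cells, 39.3% of 28 dendritic-gene cells and 50% of 10 mast and basophil-gene cells outside mouse 1B, against 15.9% of the Kit and Cd34 cells (21 cells). In mouse 1B it was at 72.7% of 11 NK/ILC-gene cells and 85.7% of 49 Kit and Cd34 cells. The dendritic and the mast and basophil shares rest mainly on mouse 1A. It held 10 of the 11 Fos cells of the dendritic class and 4 of the 5 of the mast and basophil class. In mouse 2A Fos was at a level of 10 in 0 of 6 dendritic-gene cells and 0 of 4 mast and basophil-gene cells. Its share there was 9.30% of Kit and Cd34 cells. The Fos cells of the NK/ILC class were spread over mice 1A (4 of 8 cells), 2A (2 of 10) and 2B (2 of 2).

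**Figure D5:**
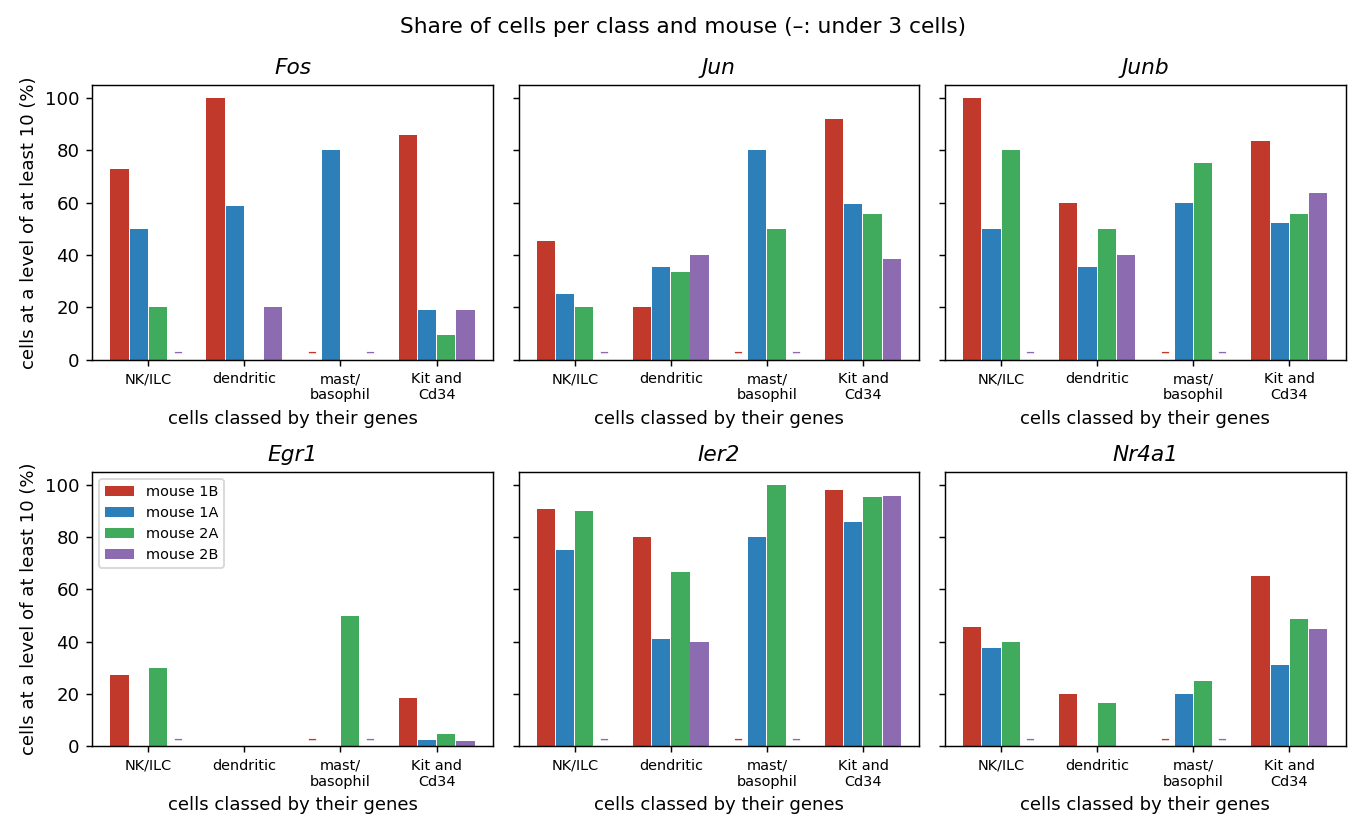
Bars give the percent of cells of each gene-defined class at a level of at least 10 for each of the 6 genes and each mouse, and a dash marks fewer than 3 cells. Nr4a1 was at 6.06% over all dendritic-gene cells, and Fos was at 85.7% of the Kit and Cd34 cells in mouse 1B and at 9.30 to 19.1% in the other mice.

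None of the 6 genes passed a test between classes. Between NK/ILC-gene cells and Kit and Cd34 cells (3 mice with at least 3 cells of each, limma, log2 difference given plate, correction set and detected genes) 0 of 12430 genes were called, with 1799 at an unadjusted p under 0.05 (14.5%). Fos differed by 1.47 ± 0.93 (SE; adjusted p = 0.536), with -0.37 in mouse 1B, 4.12 in 1A and 0.67 in 2A. Junb differed by 1.78 ± 1.12 (SE; adjusted p = 0.535), with 2.53 in mouse 1B, -1.50 in 1A and 4.31 in 2A, and Jun by -1.12 ± 0.71 (adjusted p = 0.537). Between mitotic and other Kit and Cd34 cells, split at 10 of 18 G2M phase genes, 45 of 12412 genes were called (0.363%; 9.86% at an unadjusted p under 0.05), and 0 of the 6. Nr4a1 differed by -1.45 ± 0.62 (SE; adjusted p = 0.517), mainly through mice 1A and 2A (-2.13 and -3.57, against -0.15 in 1B and 0.07 in 2B). Fos differed by 0.71 ± 0.33 (adjusted p = 0.557) and was positive in 4 of 4 mice. Without mouse 1A, 2A or 2B 0 genes were called in that comparison, and without 1B 0.226% of genes were. Between Kit and Cd34 cells with and without Il2ra, a gene of the next stage of T-lineage development, 0 of 12429 genes were called (746, or 6%, at an unadjusted p under 0.05), and Jun had the largest difference of the 6 (0.83 ± 0.55, adjusted p = 0.911).

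Well order was related to 1 of the 6 genes at an unadjusted p, and to no gene after adjustment. Egr1 had a mean rho of -0.25 ± 0.20 with the number in the cell name, with -0.04 in mouse 1B, -0.45 in 1A, -0.36 in 2A and -0.11 in 2B (p = 0.0016, adjusted p = 0.995, limma over 12431 genes). Any Egr1 reads were found in only 7 of 67 cells of mouse 1A, 9 of 64 of 2A and 6 of 61 of 2B. Its ranks in those mice thus rest on few cells. The other 5 genes had means between -0.09 and 0.07. Fos was uneven, with 0.15 in mouse 1B, 0.26 in 1A, -0.38 in 2A and 0.17 in 2B. No gene was called for well order, with 533 at an unadjusted p under 0.05 (4.29%).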

How the data were processed

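Single cells of the embryonic thymus were profiled with smart-seq2. The authors' deposited matrix holds log2 expression values after a batch correction. The submitters' processing notes name Salmon and GRCm38 without a version. The steps by which the values were normalized, corrected and filtered are not stated there. Read depth per cell is not in the matrix, so the number of detected genes (5073 to 10337) stands for it. Cells were put in the same set where they share exact values, and a gene's repeated lowest value in a set (2 or more cells) was taken as no reads (tolerance 1e-06). The mouse comparison used genes detected in at least 10% of cells with such a level in all 4 sets, and Fos, which lacks it in set 1.

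Associations were computed inside each mouse as a partial Spearman rho on ranks taken inside blocks (mouse by plate by set) given the rank of detected genes. Blocks under 5 cells were left out, so 252 cells entered. One Fisher z per mouse, or a log2 difference per mouse between classes, entered limma 3.58.1 (R 4.3.3; two-sided test, Benjamini-Hochberg over all genes, threshold 0.05). The moderated test draws on the variance of all genes. Units of the test are the labelled mice, some of which share sets, so p may be too small. Scripts were tested on simulated data. The named genes are the 6 members, the 5 genes with the highest mean rho for each, and up to 4 genes per list. For Junb, 1 gene that this rule names is not reported here. For well number the 5 highest, H2-Aa, Prkaa1, Ten1, Rogdi and Lrrc41, had no call. Members and lists were chosen with earlier results of these data known, and the comparison of mouse 1B with its margin of 20 points was set after the data were seen. Intervals on shares of cells are exact 95% Clopper-Pearson intervals and cover only counting error.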

Additional observations from a re-analysis of the deposited data

Results flagged for a closer look

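Among 52 quantities compared over the 4 mice, 5 had 1 mouse farther from the rest than Dixon's 95% critical ratio allows, and chance flags about 1 in 20 such groups. The share of cells with any Egr1 reads was 71.01% in mouse 1B, against 9.84 to 14.1% in the others. The median log2 level of Egr1 was 1.23 in mouse 1B and 0 in each of the others. With the others all at 0, any value above 0 passes this ratio, so this flag adds nothing to the one before. The share of cells with at least 4 of the 6 genes at a level of 10 was 72.5% in mouse 1B, against 18.0 to 23.4%. It is not separate from the higher shares of the single genes in that mouse. The rho of Junb with Jun was 0.019 in mouse 2B, against 0.27 to 0.30 in the other mice. The rho of Fos with well order was -0.38 in mouse 2A, against 0.15 to 0.26 in the others. The Fos and Jun shares did not pass this ratio.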

How the results depend on the processing

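The direction of the Fos and Jun results in mouse 1B held under the alternatives tried, all of which were added after the data were seen: Fos exceeded the highest other mouse by 31.1 points (at least 29.7, since its no-read level in set 1 is not known) to 66.6 points and Jun by 30.4 to 42.4 points over any reads, Kit and Cd34 cells, sets in place of mice, a level of 50, the first 8 wells left out and each other mouse left out. These alternatives draw on the same cells, and set 1 held 64 cells of mouse 1B. Mouse 1B and its correction set thus cannot be told apart by them. The number of genes past 20 points was 39 at a level of 50 and 31 to 32 with another mouse left out (main 20). Junb was 6.06 points above the highest other mouse by any reads, and Egr1 56.95 points by any reads and -3.35 points at a level of 50. Ier2 was at -2.79 points by any reads, -2.58 with sets in place of mice and 16.3 at a level of 50. Mean shares over mice at a level of 10 in place of any reads were 36.6% for Fos, 64.1% for Junb and 41.6% for Nr4a1.

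Counts of associated genes moved at small numbers, and the cause was not tested. For Fos they were 6 with Pearson and 1 with levels under 10 at 0. For Jun they were 2 with Pearson, 2 with levels under 10 at 0, 2 without the first 8 wells, 1 with 2A and 2B joined and 1 without NK cells. For Junb they were 2 with Pearson and 8 with levels under 10 at 0, and for Egr1 1 with the well covariate. For Ier2 they were 0 with 2A and 2B joined, with Pearson, without the depth covariate and without a filter, 4 with plate alone and 2 with sets as units. For Nr4a1 they were 2 with Pearson, 7 with aligned levels, 6 with levels under 10 at 0, 20 without depth, 5 with plate alone and 2 without the first 8 wells. For well number the count was 1 with levels under 10 at 0. Of all genes tested, NK/ILC-gene cells had 1.31% called with aligned levels and 1.63% with plate alone, and mitotic cells 0% with 2A and 2B joined and with levels under 10 at 0, 1.76% without depth and 0.00729% without a filter. Leaving out each mouse in turn gave 0 to 2 for Fos, 0 to 1 for Jun, 0 to 6 for Junb, 0 to 6 for Ier2, 0 to 2 for Nr4a1, 0 to 7 for well number and 0 to 0.226% of genes for mitotic cells. The median rho of the 15 pairs stayed between 0.075 and 0.150, and no pair was called under any alternative (lowest adjusted p = 0.0713, Jun with Junb). Pairs near 0 turned sign: Ier2 with Fos was 0.033 with Pearson, Nr4a1 with Jun 0.013 without depth, and leaving out each mouse in turn gave -0.042 (without 1B) to 0.078 for Egr1 with Jun and -0.018 (without 1B) to 0.098 for Nr4a1 with Junb. The Dusp5 rho with Nr4a1 was 0.32 to 0.40 under the 16 alternatives.

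Comparisons of classes were differences inside each mouse, and no fit paired by replicate number was made, since the cells form 1 group. Read depth per cell is unknown, so a gene at no reads is not shown to be absent.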
